A study of Mus musculus with 2 samples.

Results

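The replication-dependent histone genes were examined in a map of chromatin contacts of the microRNA miR-9, and 37 of 17922 peaks carried the name of such a gene. They were found by the gene name in the deposited peak annotation, taking every name of the 4 older families Hist1h, Hist2h, Hist3h and Hist4h and of the newer scheme (H1f, H2ac, H2bc, H3c and H4c with a number). All 37 names followed the older scheme, and none was caught through the newer one. The map was made by ChIRP-seq, chromatin isolation by RNA purification with a sequencing readout. Chromatin is fixed with formaldehyde, biotinylated antisense oligonucleotides capture the RNA of interest, and the attached DNA is read. The cells were MLg, a mouse lung fibroblast line (ATCC CCL-206), grown by the supplier's recommendation with no further agent in the labels. The design held 1 library from the capture of endogenous miR-9 and 1 library from input chromatin, without replicates, so every value below describes 1 peak list. A capture with a control probe was not analysed here, the score of every peak was listed as 0, and the deposited list gives no read depth.

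The replication-dependent histones are the core histones H2A, H2B, H3 and H4 and the linker histone H1 that package newly copied DNA, and their genes are transcribed in S phase. The genes have no introns as a rule, stand in clusters on a few chromosomes, and are nearly identical within a type. Many H2A and H2B genes start back to back and are read in opposite directions from a shared promoter. NPAT, the coactivator that cyclin E and CDK2 phosphorylate, gathers at the clusters in a nuclear body, and the mRNAs end in a stem-loop bound by SLBP in place of a poly(A) tail.

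The peaks lay mainly on H2A sequence. Of 67 protein-coding histone genes of this kind annotated by RefSeq in GRCm38.p6, the same assembly as mm10, 19 had at least 90% of their coding sequence under a peak, and 16 of these were H2A genes. That is 16 of 18 H2A genes (88.9%, exact 95% interval 65.3 to 98.6%), against 3 of 49 genes of the other types (6.12%, 1.28 to 16.9%). By type the counts were 1 of 18 for H2B, 1 of 12 for H3, 1 of 13 for H4 and 0 of 6 for H1. As a background for small genes, none of 589 other genes with 1 coding exon of 300 to 700 bases was covered to this extent (0%, interval to 0.624%). Only the 67 genes were left out of this background, so variant histone genes were not removed. The variant gene H2ax was covered for 87.7%, just under the limit. Intervals throughout are Clopper-Pearson intervals for shares and cover counting error alone. Neighbouring genes share peaks and near-identical sequence, so genes are not independent and the intervals are too narrow for them. The split by type was seen in these data and then counted.

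**Figure D1:**
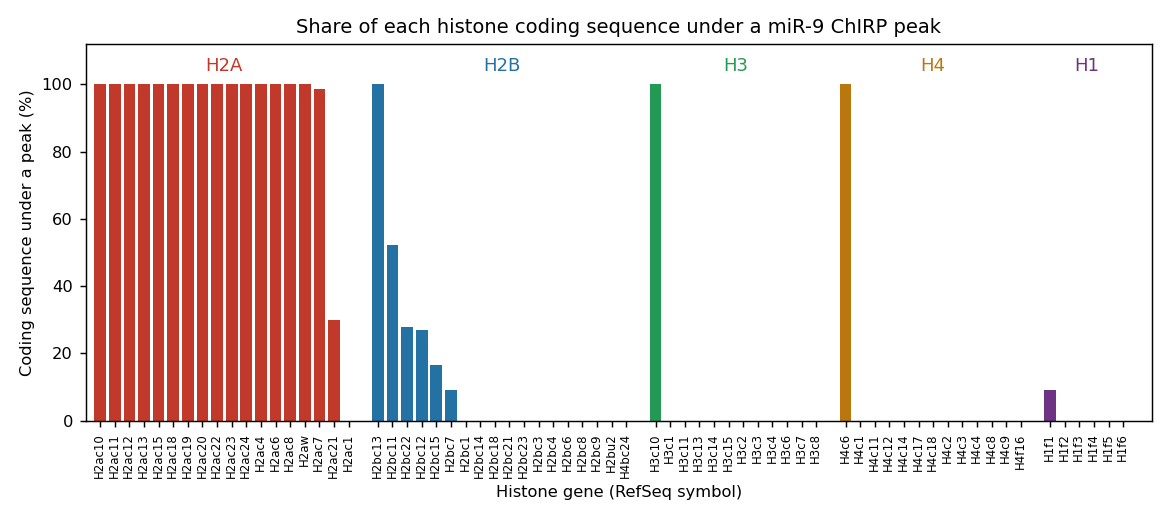
Share of the coding sequence under a peak (vertical axis, percent) for each of 67 replication-dependent histone genes, grouped and coloured by histone type and sorted within it. The H2A genes stand at or near 100% in 16 of 18 cases, while 3 of 49 genes of the other types reach 90%.

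The first 150 coding bases of 5 H2A genes are shown, read from the genome on the coding strand. H2ac7 (Hist1h2ad in the deposited list), whose coding sequence was on average the most like the other H2A genes (mean identity 95%), is the reference, and capitals in the other lines mark bases that differ from it. H2aw (Hist3h2a) and H2ax, the gene of the DNA damage variant, were covered by peaks for 100% of the coding bases and 87.7%, respectively. H2ac21 (Hist2h2ab) was covered for 30.0%, and the testis gene H2ac1 (Hist1h2aa) was not covered. No alignment had a gap.
H2ac7, chr13:23574471-23574620, plus strand: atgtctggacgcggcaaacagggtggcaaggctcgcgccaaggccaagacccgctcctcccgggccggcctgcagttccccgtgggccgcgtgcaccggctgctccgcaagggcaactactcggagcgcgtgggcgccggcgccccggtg
H2aw, chr11:58954738-58954887, plus strand: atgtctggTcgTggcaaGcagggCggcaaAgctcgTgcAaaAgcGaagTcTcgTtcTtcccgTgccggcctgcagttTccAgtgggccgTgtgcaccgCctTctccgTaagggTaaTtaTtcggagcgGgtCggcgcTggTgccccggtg
H2ax, chr9:44334762-44334911, plus strand: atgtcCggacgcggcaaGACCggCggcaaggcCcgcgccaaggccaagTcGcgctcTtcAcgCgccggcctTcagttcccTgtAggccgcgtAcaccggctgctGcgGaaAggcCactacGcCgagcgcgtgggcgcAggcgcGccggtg
H2ac21, chr3:96219916-96220065, plus strand: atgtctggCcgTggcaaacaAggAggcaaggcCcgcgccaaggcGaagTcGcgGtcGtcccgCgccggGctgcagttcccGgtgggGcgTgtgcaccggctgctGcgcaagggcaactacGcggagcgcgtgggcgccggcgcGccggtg
H2ac1, chr13:23934462-23934611, plus strand: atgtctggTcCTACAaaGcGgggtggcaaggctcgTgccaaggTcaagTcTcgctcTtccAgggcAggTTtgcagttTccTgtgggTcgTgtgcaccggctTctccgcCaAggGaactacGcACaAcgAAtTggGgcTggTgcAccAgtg
Of these 150 bases, 27 differed in H2aw, 24 in H2ax, 18 in H2ac21 and 37 in H2ac1. Over the whole coding sequence, identity to H2ac7 was 84.0% for H2ac21 and 83.7% for H2ac1, and 88.5% or more for the 16 covered H2A genes, with H2aw the lowest of them. By identity to the closest other H2A gene, 15 of 15 genes at 90% or more were covered and 1 of 3 between 80% and 90%, which was H2aw.

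The captured RNA, mature miR-9-5p, is shown with its seed (bases 2 to 8) in capitals, as RefSeq gives it.
mmu-miR-9-5p: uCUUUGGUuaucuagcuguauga
The H2A coding sequences held little of it. The longest stretch of miR-9-5p on either strand of a coding sequence had a median of 5 bases over the 18 H2A genes, and 1 of them, H2ac21, held a stretch of 7 or more bases. The medians for H2B, H3 and H4 were 5 bases as well, and that for H1, whose coding sequences are longer, was 7.

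H2A wraps DNA together with H2B at the outer part of the nucleosome. On chromosome 13, where the Hist1 family lies, 12 peaks covered the coding sequence of an H2A gene. The widest peak of the set, at chr13:21715763-21718189, spanned 2427 bases and was centred 564 bases downstream of the transcription start site (TSS) of Hist1h2ai (H2ac13). It was also the member that covered the coding sequences of H2bc13 and H3c10 whole, and so it supplied 2 of the 3 covered genes outside H2A. The peak of Hist1h2ak (H2ac15) lay at chr13:21753322-21754185, was 864 bases wide and was centred at 159 from the TSS. That of Hist1h2an (H2ac22), at chr13:21786766-21787620, spanned 855 bases and had the centre nearest to an H2A start, at 55. All of these reached across the start into the paired H2B gene.

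A pair of regions on chromosome 13 could not be told apart by name. The peaks at chr13:21810195-21811109 and chr13:21832833-21833747 were each 915 bases wide, and both were named Hist1h2ap at a distance of 185. By RefSeq the first lies on H2ac23 (Hist1h2ao) and the second on H2ac24 (Hist1h2ap), and the coding sequences of these genes are 100% identical. Neither peak held a 32-base word that occurs once in the assembly. The peak of Hist1h2ah (H2ac12), at chr13:22034796-22035988, was 1193 bases wide and centred at 251. The peak of Hist1h2ag (H2ac11), at chr13:22042236-22043428, had the same width of 1193 bases and was centred at 117. Both ran well past the end of the gene, by 326 and 242 bases.

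The remaining H2A genes of the Hist1 family had peaks of 697 to 925 bases. Hist1h2af (H2ac10) had a peak of 925 bases at chr13:23533697-23534621, centred at 284, and Hist1h2ab (H2ac4) one of 874 bases at chr13:23750794-23751667, centred at 142. These were the peaks that HOMER labelled exonic. The peak of Hist1h2ac (H2ac6), at chr13:23683366-23684127, spanned 762 bases around 213. At Hist1h2ad (H2ac7) the peak at chr13:23574156-23574858 spanned 703 bases around 126 and ended inside the coding sequence, so that 98.7% of it was covered. The peak of Hist1h2ae (H2ac8), at chr13:23570625-23571321, was 697 bases wide and centred at 247. H2ac1, the testis gene at the far end of the chromosome 13 span, was the H2A gene without a peak within 2 kb, and the nearest centre lay at -8243.5.

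On chromosome 3, where the Hist2 family lies, peaks were closely fitted to the H2A genes. Hist2h2ac (H2ac20) had a peak of 474 bases at chr3:96220430-96220903, centred at 214. The copies H2ac19 and H2ac18 are 100% identical in coding sequence and were both named Hist2h2aa1, with peaks of 587 bases at chr3:96239801-96240387 and 507 bases at chr3:96245511-96246017. Their deposited distances to the start of Hist2h2aa1 were 240 and 267, and the centre of the first lay 280 bases from the start of H2ac19 itself. All 3 peaks stopped short of the annotated gene end, by 17, 22 and 35 bases, and that of H2ac18 also began 14 bases inside the gene. The fourth H2A gene of the cluster, Hist2h2ab (H2ac21), had a peak of 118 bases at chr3:96220078-96220195, centred at 251, the narrowest of the set. On chromosome 11 the Hist3 gene Hist3h2a (H2aw) had a peak of 1314 bases at chr11:58954489-58955802, centred at 460. A further peak named for it, at chr11:58956033-58956650, spanned 618 bases, was centred at 1656 and covered no histone sequence.

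**Figure D2:**
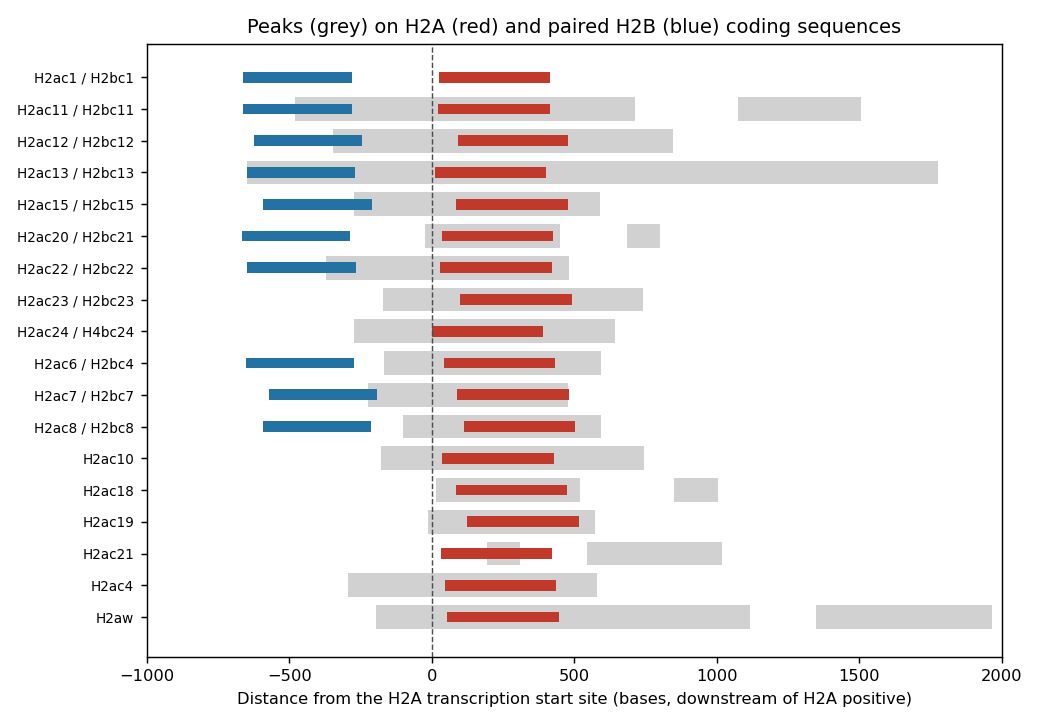
Extent of the peaks (grey) around the 18 H2A genes, by distance from the H2A start site in bases, with the H2A coding sequence in red and, where the paired H2B coding sequence is a single exon, that of H2B in blue. The grey bars enclose the red ones in all rows but those of H2ac1, H2ac21 and H2ac7, and H2B coding sequence is reached in 6 of 12 pairs.

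Over the 17 H2A genes with a peak within 2 kb, the centre of the nearest peak lay 55 to 564 bases downstream of the start, with a median of 247. The coding sequences of the H2A genes are 387 to 393 bases long. The 16 peaks over covered H2A genes reached a median of 210 bases beyond the start of the gene (from -14 to 649) and a median of 91 beyond its end (from -57 to 1330). The start itself was under a peak in 15 of 18 H2A genes (83.3%), where 1.53% of 21000 protein-coding genes had a start under a peak. The last 50 bases of the gene, which hold the 3′ end of the mRNA, were fully covered in 12 of 18. A match to the histone stem-loop consensus was found at the gene end of 17 of 18 H2A genes and lay whole under a peak in 11.

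H2B genes were covered at the start more than in the coding sequence. The start was under a peak in 9 of 18 H2B genes (50.0%, 26.0 to 74.0%), and the median cover was 72.3% of the promoter window and 0% of the coding sequence. A peak overlapped 10 of the 18 genes at some base. Of 18 H2B genes, 14 had a peak centre within 2 kb of the start, but in 13 of these the peak was one on H2A sequence, with its centre at -793 to -295 from the H2B start. In 12 H2A and H2B pairs that start back to back, 164 to 281 bases separated the starts. In 11 of the 12 pairs at least 90% of the H2A coding sequence was covered and the peak centre lay downstream of the H2A start, whereas H2bc13 was the H2B partner covered to that extent. In 6 of the 12 pairs no coding base of H2B was under a peak. The partial cases were H2bc11 (52.2% of the coding bases), H2bc22 (27.8%), H2bc12 (26.8%), H2bc15 (16.5%) and H2bc7 (9.19%). The last 50 bases of the annotated gene were uncovered in all 18 H2B genes, H2bc13 included. In some, such as H2bc4 and H2bc22, the annotated gene ends kilobases beyond the coding sequence. A match to the stem-loop consensus was found at the gene end of 12 of 18 H2B genes, and 0 of these matches lay whole under a peak.

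**Figure D3:**
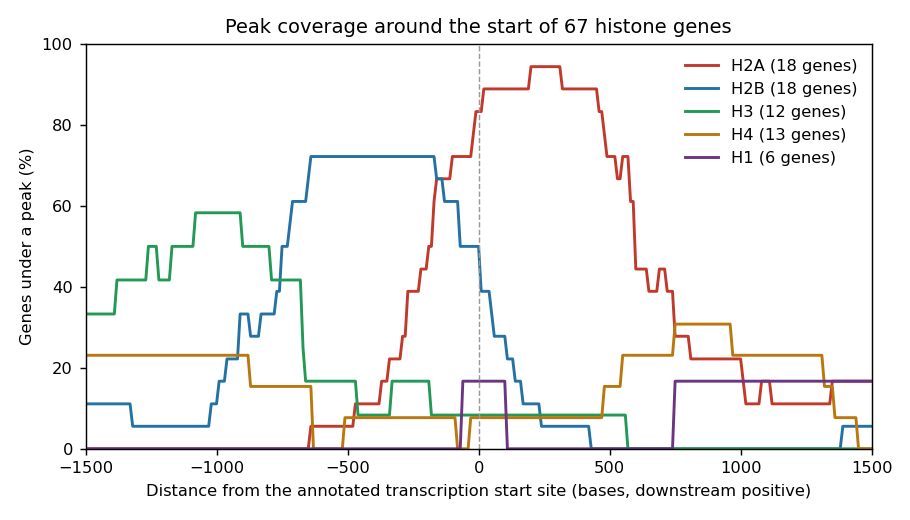
Share of the genes of each type under a peak (vertical axis, percent) at each distance from the annotated start (horizontal axis, bases, sampled every 10 bases). The H2A curve is highest from 200 to 310 bases downstream, at 94.4% of 18 genes, and the H2B curve from 640 to 170 bases upstream, at 72.2% of 18 genes.

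The promoters between the pairs are shown for the 3 genes whose peak was centred nearest to the start and also covered a second histone start. Each window runs from 250 bases before to 50 after the start in the RefSeq promoter table (GRCm38.p6), and capitals mark CCAAT boxes, TATAAA boxes and octamers (ATTTGCAT) on either strand.
H2ac22, chr13:21787199-21787498, minus strand: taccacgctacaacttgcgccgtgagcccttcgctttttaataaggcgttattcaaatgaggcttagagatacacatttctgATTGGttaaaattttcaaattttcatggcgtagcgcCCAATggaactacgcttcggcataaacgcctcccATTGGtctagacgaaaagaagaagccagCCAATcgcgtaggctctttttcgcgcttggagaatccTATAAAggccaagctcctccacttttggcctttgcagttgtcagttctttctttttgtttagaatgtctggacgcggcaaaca
H2ac11, chr13:22042900-22043199, minus strand: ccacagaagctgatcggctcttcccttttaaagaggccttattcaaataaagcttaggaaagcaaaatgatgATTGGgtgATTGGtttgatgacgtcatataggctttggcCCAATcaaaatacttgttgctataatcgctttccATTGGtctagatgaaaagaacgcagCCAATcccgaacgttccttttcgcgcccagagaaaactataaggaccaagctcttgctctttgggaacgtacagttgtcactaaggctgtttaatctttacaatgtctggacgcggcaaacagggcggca
H2ac7, chr13:23574131-23574430, plus strand: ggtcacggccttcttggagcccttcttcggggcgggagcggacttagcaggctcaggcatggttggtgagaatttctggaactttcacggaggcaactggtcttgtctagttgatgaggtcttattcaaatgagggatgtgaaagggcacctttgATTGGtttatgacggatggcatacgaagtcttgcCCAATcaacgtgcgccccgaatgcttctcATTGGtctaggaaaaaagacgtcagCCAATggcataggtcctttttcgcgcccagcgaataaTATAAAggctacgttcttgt
The windows of H2ac22 and H2ac11 were fully under a peak and that of H2ac7 for 91.7%. Each held 4 or 5 CCAAT words, the binding sequence of NF-Y. A CCAAT word occurred in the windows of 18 of 18 H2A and 16 of 16 H2B genes in the table, and in 37.4% of all 32851 promoters. It was as common at H3 (10 of 10) and H1 (6 of 6), and found in 3 of 12 H4 windows. TATAAA was found in 11 of 18 H2A and 8 of 16 H2B windows (13.6% of all), and the octamer in 7 and 6 (1.74% of all). A match is a description of the letters and does not show a bound site.

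H3 and H4 form the tetramer at the centre of the nucleosome. For H3, 8 of 12 genes had a peak centre within 2 kb, and in 6 of the 8 the nearest peak was one on H2A sequence, at -1259 to -652 from the H3 start. H3c10, inside the widest peak, was the H3 gene whose coding sequence was touched. Hist2h3c1 (H3c14) had a peak in its promoter, of 155 bases at chr3:96246346-96246500 and centred at -262. This peak held no 32-base word that occurs once in the assembly. H3c1 had its nearest centre at -1304.5, in the peak of the neighbouring H1 gene.

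For H4, 6 of 13 genes had a peak centre within 2 kb. Hist1h4f (H4c6) was the H4 gene that was covered, by a peak of 999 bases at chr13:23550704-23551702 centred at 465. At the other H4 genes the peaks left out the coding sequence. Hist1h4i (H4c9) was flanked by a peak of 878 bases at chr13:22040006-22040883 (918) and one of 434 bases at chr13:22041443-22041876 (-297), with no base of the gene under either. One more peak, of 673 bases at chr13:22039060-22039732 (1966), was annotated to a B1 SINE repeat. Hist1h4k (H4c12) had a peak of 767 bases at chr13:21749242-21750008 (928) and Hist4h4 (H4f16), which stands alone on chromosome 6, one of 703 bases at chr6:136802982-136803684 (1098). Both lay beyond the end of the gene. H4c17 and H4c18 were near peaks on H2A genes, at -1094 and -1093.

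H1 binds the linker DNA, and its genes are the least alike. A peak of 168 bases at chr13:23763607-23763774 was centred 22 bases from the start of Hist1h1a (H1f1) and covered 9.03% of the coding sequence. A peak of 1294 bases at chr13:21778589-21779882 was centred at 1390 from the start of Hist1h1b (H1f5) and took in the end of the gene with its stem-loop, without a coding base. The other 4 H1 genes had no peak within 2 kb.

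The comparison was extended beyond the list of genes to every place of the 21 chromosomes that aligned to a histone coding sequence over at least 200 bases. Besides the 18 H2A genes there were 9 such places for H2A, and 4 of them had a peak. The pseudogene H2ac14 was covered whole by the peak at chr13:21721327-21722084, which spanned 758 bases and was named for the next gene, Hist1h2bm (-339). The pseudogene H2ac5-ps was covered whole by the peak at chr13:23745982-23746602, of 621 bases and named for Hist1h2bb (-442). The transcribed pseudogene H2af-ps2, far from the cluster, was covered for 81.5% by the peak of Hist1h2al at chr13:51202540-51202996, of 457 bases (298). The fourth was H2ax on chromosome 9, with 86.2% of the aligned part covered. The other 5 places, among them H2aj (identity 90.6% to the closest H2A coding sequence) and Gm7291 (83.7%), had no peak.

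For the other types, 0 of 6 further places of H2B, 0 of 67 of H3 and 0 of 1 of H1 had a peak, and H4 had none to compare. Identity was mostly low at these places: at 90% or more there were 3 of 4 further H2A places with a peak, against 0 of 2 of H2B, and H3 had no such place.

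**Figure D4:**
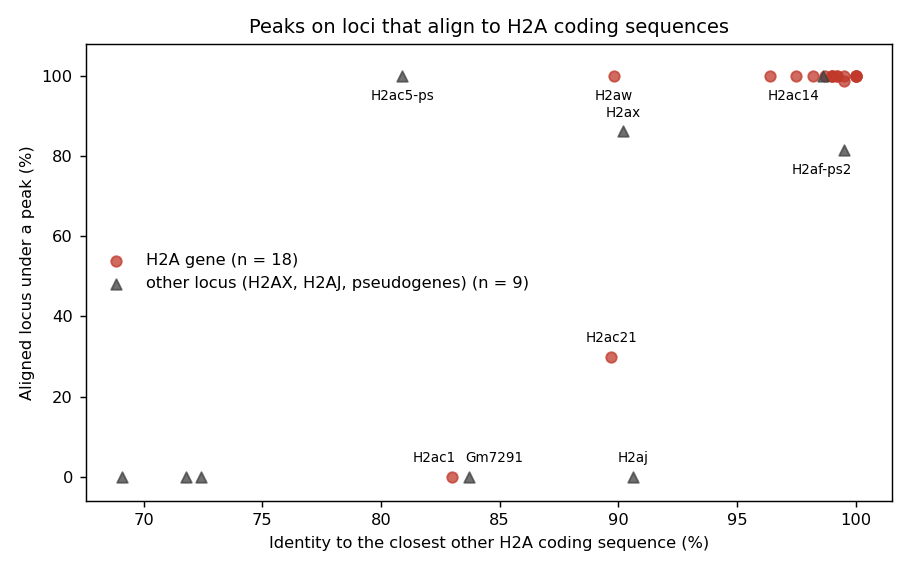
Each of 27 places that aligned to an H2A coding sequence, by identity to the closest other H2A coding sequence (horizontal axis, percent) and by the share of the place under a peak (vertical axis, percent). H2A genes are red circles and other places grey triangles. H2ac5-ps at 80.9% identity is covered whole, while H2aj at 90.6% has no peak.

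Of the 37 members, 20 thus lay on H2A sequence, 17 on genes and 3 on pseudogenes. A further 2 lay on the coding sequence of another type, 10 within 2 kb of a histone start without touching a coding sequence, and 5 farther away. The 10 include, beside those named, a peak of 148 bases at chr13:22044584-22044731 (Hist1h2bj, 1459) and one of 173 bases at chr13:23587678-23587850 on a simple repeat (Hist1h2be, -1794). The 5 far members had the histone gene as the nearest start and lay at no histone coding sequence. They were named for Hist2h2bb at 4491, Hist1h2ba at 7963, Hist1h2bp at 10618, Hist1h2br at 12027 and Hist1h2al at -63823. The last was annotated to an IAPEz element, and its 32-base words occurred at a median of 1013 places. In all, 8 peaks overlapped more than 1 histone gene, and these were the pairs H2ac15 and H2bc15, H2ac22 and H2bc22, H2ac23 and H2bc23, H2ac24 and Hist1h2br (H4bc24 in RefSeq), H2ac12 and H2bc12, H2ac11 and H2bc11, H2ac7 and H2bc7, and the trio H2bc13, H2ac13 and H3c10.

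The members were wide. Their median was 697 bases (quartiles 501 and 878), against 498 (164 and 599) for the 1458 other peaks within 2 kb of a start and 408 for all peaks. The 20 members on H2A sequence had a median of 808 bases and the other 17 one of 525. Peaks over 250 bases made up 31 of 37 members (83.8%, 68.0 to 93.8%) and 61.7% of the other peaks within 2 kb of a start (59.1 to 64.2%). The members also differed from all peaks in where they lay. In the HOMER class promoter-TSS were 20 of 37 (54.1%, against 3.33% of all peaks), in TTS 6 (16.2% against 2.06%) and on an annotated repeat 3 (8.11% against 48.7%). Within 2 kb of a start lay 32 of 37 members (86.5%), against 8.31% of all peaks. The class and repeat shares were not set against other peaks within 2 kb of a start. The class could refer to the start of a neighbouring gene and not of the named one. The peaks of Hist2h2ab and Hist2h2ac, for example, were labelled with the same transcript. The 54.1% is thus not a share at promoters of the named genes.

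Base composition differed between the members on H2A sequence and the others. The 20 members on H2A sequence had a median GC content of 54.8% (50.0 to 66.1%) and a median CpG ratio, observed over expected, of 0.931, and the other 17 members had 44.5% and 0.249. For the other peaks within 2 kb of a start the medians were 48.7% and 0.362. Coding sequences of all types are GC-rich, with medians of 68.8% for H2A, 62.5% for H2B, 66.9% for H3, 65.1% for H4 and 59.4% for H1. A G-quadruplex motif, with 3 or more G in each of 4 runs and no loop over 7 bases, was found in 2 of 37 members (5.41%, 0.661 to 18.2%), those of Hist1h1b and Hist2h3c1. It was found in 0 of 20 on H2A sequence (interval to 16.8%) and in 13.7% of the other peaks within 2 kb of a start (12 to 15.6%). Over all peaks the share was 5.65%, near that of the members.

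A 7-base word of miR-9-5p on either strand was found in 24 of 37 members (64.9%, 47.5 to 79.8%), and in 54.0% of the other peaks within 2 kb of a start. On H2A sequence it was found in 11 of 20 (55.0%, 31.5 to 76.9%). A 10-base word was found in 2 members (5.41%, 0.661 to 18.2%) and in 5.21% of the other peaks. The members were wider, with a median of 697 bases against 498, and these shares were not corrected for width. The 2 words are shown with 10 bases on either side, on the plus strand and with the word in capitals.
Hist1h2ai peak, chr13:21716392-21716421: cttactgcggTGGTTATCTAcagctgagtt
Hist3h2a peak, chr11:58954710-58954739: tttgcgtactTTTGGTTATCagtggaagat
The first matches bases 5 to 14 of miR-9-5p and the second bases 3 to 12, both with the letters of the miRNA itself and not of its complement. The first word lay 10 bases before the coding start of H2ac13 and the second 8 bases before that of H2aw, on the coding strand. Neither word was shared by the other members on H2A sequence, whose longest stretch was 6 to 8 bases.

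Near-identical copies bear on how reads are placed, since the aligner was run in its default mode. Of all 32-base words of an H2A coding sequence, the median word occurred at 12 places of the assembly, when the median is taken over the 18 genes. The same measure was 11 for H2B, 8 for H3, 6 for H4 and 1 for H1. Identity to the closest gene of the same type had medians of 99.0% for H2A, 98.4% for H2B, 98.9% for H3, 96.8% for H4 and 80.4% for H1. H2aw was covered whole with 81.5% of its words at a single place, and H2ac1 was not covered with 88.9%. Words at a single place made up 0 to 88.9% of the H2A coding sequences. Over whole peaks, 4 of 37 members (10.8%) had at least 50% of their words at 5 or more places, against 5.90% of the other peaks within 2 kb of a start and 21.6% of all peaks. Counted at 2 or more places, the shares were 35.1% of the members, 10.0% and 26.1%, so the members then stood above all peaks and not below them. The part of shared reads in the H2A pattern was not tested.

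By clusters, 28 members lay on chromosome 13, 6 on chromosome 3, 2 on chromosome 11 and 1 on chromosome 6. Of 67 genes, 47 had a peak centre within 2 kb of the start (70.1%, 57.7 to 80.7%), where 6.64% of 21000 protein-coding genes did. Genes close together share peaks. Counted as 1 unit where starts lay within 2 kb of each other, 24 of 39 units had such a peak (61.5%). The share of genes was 70.4% on chromosome 13 (38 of 54 genes) and 70.0% on chromosome 3 (7 of 10). H4c14, H3c13 and H2bc18 on chromosome 3 and H2bu2 on chromosome 11 had none, as had 16 genes on chromosome 13. The chromosome 13 span of 2.22 Mb from first to last gene held 38 peak centres, or 17.1 per Mb (exact Poisson interval 12.1 to 23.5), against 6.69 in the rest of the chromosome. In its 4 pieces without gaps over 100 kb, 0.365 Mb in all, the density was 63.0 (40 to 94.6). The chromosome 3 span of 0.0503 Mb held 5 centres, or 99.4 per Mb (32.3 to 232), against 5.41 in the rest. The chromosome 11 span of 0.00628 Mb held 1 centre.

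The factors that supply histones had peaks in 5 of 46 genes (10.9%). Of 20 genes for histone gene transcription and mRNA 3′ end formation, 2 had a peak centre within 2 kb of the start (10.0%, 1.23 to 31.7%), an interval that holds the 6.64% of all protein-coding genes. They were Cpsf3, the endonuclease that cuts histone pre-mRNA, with a peak of 683 bases at chr12:21286299-21286981 (343), and Cdk2, the partner of cyclin E, with one of 576 bases at chr10:128704390-128704965 (373.5). The nearest centres to Npat and Slbp lay 133274.5 and 7778.5 bases downstream. Of 15 chaperones 1 had one (6.67%, 0.169 to 31.9%). It was Chaf1a, a subunit of the CAF-1 complex that deposits H3 and H4 at replication forks, with 1042 bases at chr17:56038468-56039509 (-1427.5). Of 11 replication-independent histone genes 2 had one (18.2%, 2.28 to 51.8%). They were Cenpa, the centromeric H3, with 701 bases at chr5:30666550-30667250 (14), and H2ax (H2afx in the deposited list), with 652 bases at chr9:44334815-44335466 (425.5). The other 9, H2aj among them, had none.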

How the data were processed

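The authors trimmed single-end reads with Trimmomatic 0.36, aligned them to mm10 with Bowtie2 in its default mode, removed duplicates with Picard, called peaks over the input with MACS at an uncorrected p-value cutoff and more than 1 shift size, merged the calls with bedtools and annotated them with HOMER. They deposited 1 list of peaks with start and end positions, and a score that was 0 in every peak. Split annotation was rejoined in 8093 peaks, 4 of them members, and 64 peaks had no gene name. The members, lists and comparisons were chosen with earlier results of these data known, and the count by histone type and coding sequence was added after seeing them. Histone genes and starts came from RefSeq (GRCm38.p6). Further places were found with blastn 2.17.0 (e-value limit 1e-10, at least 200 bases), and words were counted over 21 chromosomes with Python 3.11.15 and numba 0.67.0. Intervals used scipy 1.17.1. A gene was counted when a curated start had a peak centre no more than 2 kb away. Promoters matched by symbol for 62 of 67 genes. Members within 2 kb are named with position, width and distance to the start, and farther members with distance. The code was tested on planted peaks and sequences.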

Additional observations from a re-analysis of the deposited data

How the results depend on the processing

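Of 30 alternatives tried, 24 left the value within the interval or spread of the reported one (within 1.5 times for the count of members) and 6 did not. Some of the 24 could not change the value. The spans on chromosomes 3 and 11 have no gap over 100 kb to leave out, and no member had a newer H1 name to remove. The share of histone genes with a peak was 56.7% with centres within 1 kb and 40.3% when the peak had to cover the start, instead of 70.1%. Over all 21000 protein-coding genes the shares at these settings were 4.2% and 1.53%, instead of 6.64%. Taken by overlap with a histone gene in place of the deposited name, the members numbered 23 (at least 1 base) or 15 (50% of the peak or more), instead of 37. Those that drop out include peaks beside genes and the peaks on the pseudogenes H2ac5-ps and H2af-ps2. The share of members with repeated words was 35.1% at 2 or more places, instead of 10.8%, where all peaks had 26.1% and 21.6%. The density on chromosome 13 was 63.0 per Mb without gaps over 100 kb (23 centres in 0.365 Mb), instead of 17.1 (38 in 2.22 Mb). The gaps were set between histone genes and so hold no histone gene by definition. The H2A share stayed between 83.3% and 94.1% when the coverage limit, narrow peaks, identical copies or the testis gene were changed, and the share of the other types between 2.04% and 8.16%. Without the widest peak it was 2.04%. These alternatives for coding sequence were chosen after seeing the data. No paired analysis was possible because the capture and the input have 1 library each and 1 peak list. Without read counts, replicates or a control probe, the strength of a peak, its reproducibility and its dependence on the miR-9 probe could not be measured.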
